A study of Mus musculus with 12 samples.

Results

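The genes described here encode the protein-folding machinery of the endoplasmic reticulum (ER), the sensors and factors that control it, and the translocation, glycosylation and export steps on either side of it. They are 49 genes chosen by name as a module, of 57010 genes in the table and 16502 with enough counts to be tested, and all 49 were tested. Their levels were followed by bulk RNA-Seq in NE-4C cells, a neural progenitor line derived from mouse embryonic brain at day 9, with 3 libraries from separate passages in each of 4 groups. WT NO and KO NO cells were untreated, and WT RA and KO RA cells received 1 µM all-trans retinoic acid (RA), which starts neural differentiation of this line, for 24 h and were collected on day 3. WT cells were unedited, and Faf2 KO cells were a line grown from a picked colony after CRISPR-Cas9 deletion of an internal exon of Faf2, so the genotype comparisons set 1 edited line against its parent and the p-values measure the spread between passages. FAF2 is an ER membrane adaptor of ER-associated degradation, which clears misfolded proteins.

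When unfolded proteins accumulate in the ER, the chaperone BiP leaves the sensors IRE1, ATF6 and PERK. ATF6 then moves to the Golgi, where site-1 and site-2 proteases release its transcription factor, and IRE1 splices the mRNA of Xbp1 so that it encodes an active factor. Both factors raise the transcription of ER chaperones, disulfide isomerases, components of the SEC61 channel and the COPII coat. The counts are per gene, so the spliced and unspliced forms of Xbp1, and the cleavage of ATF6, are not measured here.

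ATF6 acts with the factor NF-Y at the ER stress response element (ERSE), in which CCAAT and CCACG are separated by 9 bases. RefSeq promoter windows, from 250 bases before to 50 bases after a transcript start, were found for 42 of the 49 genes, in 48 windows. The members without a window were Atf6, Sec61a1, Manf, Spcs3, Sil1, Hyou1 and Ssr2. On either strand, the full element was present in 8 of the 48 windows (16.7%), one for each of 8 genes, and in 39 of all 32851 windows (0.119%). The stretches below hold these elements in capitals, in the direction of the gene, because they show where the element lies in each of these genes. They were shortened to 29 bases where the annotation places an exon of any gene over them.
Hspa5: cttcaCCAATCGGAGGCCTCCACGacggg
Hsp90b1: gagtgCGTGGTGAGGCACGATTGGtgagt
Hsp90b1: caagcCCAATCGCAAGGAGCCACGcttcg
Calr: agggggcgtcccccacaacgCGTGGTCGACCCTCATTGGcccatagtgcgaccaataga
Canx: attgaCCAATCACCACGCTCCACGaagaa
Pdia6: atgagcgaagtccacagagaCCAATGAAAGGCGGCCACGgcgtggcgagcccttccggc
Dnajc3: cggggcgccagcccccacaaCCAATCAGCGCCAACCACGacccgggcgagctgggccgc
Creld2: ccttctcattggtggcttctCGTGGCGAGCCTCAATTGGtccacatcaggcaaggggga
Ero1b: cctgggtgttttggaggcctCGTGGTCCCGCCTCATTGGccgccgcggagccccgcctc
The sites are at chr2:34662032-34662060 (plus strand), chr10:86541392-86541420 and chr10:86541497-86541525 (minus), chr8:85573684-85573742 (minus), chr11:50216622-50216650 (minus), chr12:17316472-17316530 (plus), chr14:119175219-119175277 (plus), chr15:88703703-88703761 (plus) and chr13:12580543-12580601 (plus) of GRCm39, found by an exact match of the window to that genome. Each lay before the RefSeq start, the nearest being that of Hspa5, whose first base was 65 bases upstream, and the farthest the sense copy of Hsp90b1, at 212 bases. Hsp90b1, the gene of the chaperone GRP94, held 2 copies in opposite directions. The element of Calr, Creld2 and Ero1b and the nearer copy of Hsp90b1 were on the opposite strand, so that the capitals there begin with CGTGG and end with ATTGG. In the GENCODE annotation the sites of Calr, Pdia6, Dnajc3, Creld2 and Ero1b lay outside any gene, that of Hspa5 and the nearer one of Hsp90b1 lay in an exon of an annotated transcript of their own gene, and the others lay in an exon of Gm73210 (Canx) and of Ttc41 (Hsp90b1).

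The related ERSE-II, ATTGG and CCACG separated by 1 base, was found in Dnajb11, from base 8 of the RefSeq transcript (chr16:22676593-22676621, plus strand of GRCm39), and in 0.0365% of all windows. The sequence TGACGTGG, which XBP1 is known to bind, was found in Txndc5 (chr13:38712010-38712039, minus strand, in an exon of Gm31834), Txndc11 and Sec24d, and in 0.676% of all windows. The stretches of Dnajb11 and Txndc5, whose levels are described further on, are shown with these letters in capitals.
Dnajb11: ccggcggcgATTGGCCCACGcctggctgc
Txndc5: ggcctcgccgcTGACGTGGcgctagccgcc
The CCACG part alone was present in 30 of the 48 member windows and in 32.8% of all windows. It is contained in both ERSE forms. A match is a match of letters, and binding was not measured.

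The libraries held 17370069 to 30738717 counts. Levels are given as CPM, a gene's counts on a library total brought to a common size with scaling by trimmed means (TMM). The deposited values depend on transcript length as counts scaled from TPM do, so levels were read as per length when genes are compared. KO RA replicate 3 stood apart from the other 11 libraries. Its scaling factor was 0.394, against 0.872 to 1.28 in the others, its 100 most abundant genes took 62.5% of the counts, against 37.1% to 50.4%, and mitochondrial genes took 23.5%, against 9.10% to 17.7%. Pairs of replicates were also compared by a binomial split on their totals without TMM factors, so differences in scaling enter this measure. Against KO RA replicates 1 and 2, this library departed beyond the noise of such a split in 90.7% and 89.8% of genes. The remaining pairs of replicates did so in 41.7% to 71.0%. The highest of these, 71.0% and 69.5%, were the pairs with WT NO replicate 3, and the others reached 57.5% at most. Counts of members called are given with and without KO RA replicate 3. Faf2 itself, whose gene-level counts include the exons outside the deletion and so check the deletion only in part, was at 36.0 to 50.01 CPM in WT NO, 21.0 to 25.4 in KO NO, 35.1 to 49.1 in WT RA and 18.7 to 36.1 in KO RA, and thus overlapped between the RA groups. Of the markers of neural progenitors, Nes, Sox2, Otx2 and Cdh2 were at 19.4 CPM or more in every library and Pax6 at 0.791 to 14.9 CPM. The pluripotency factor Pou5f1 was at 799.951 to 2775 CPM and Nanog at 43.6 to 173 CPM, also without RA, while Zfp42 was at or near 0.

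The module was led by the abundant luminal chaperones. In WT NO cells Calr (calreticulin, a lectin chaperone) was at 711, 719.9 and 240.3 CPM in replicates 1, 2 and 3. Hspa5, which encodes the central chaperone BiP, was at 432, 484 and 335 CPM, and Hsp90b1 at 409, 449.8 and 336 CPM. Replicate 3 was the lowest of its group for all of these. Between 16 and 19 members were above 100 CPM in each library and 7 to 9 were below 10 CPM. The low end held the sensors, with Ern1 (IRE1) at 3.31, 3.59 and 3.17 CPM and Atf6 at 9.44, 8.10 and 5.52 CPM in WT NO, and Ero1b, an oxidase that recharges disulfide isomerases, at 0.845, 1.15 and 0.366 CPM. The summed level of the 49 genes was 4983 to 6385 CPM in 11 libraries and 14929 CPM in KO RA replicate 3. These sums are on the TMM scale, and the low scaling factor of that library, 0.394, raises each of its levels. An excess in its counts before scaling is therefore not shown by the sum. The median member, by contrast, was at 50.4 CPM in that library and at 47.3 to 64.0 CPM in the others, so the excess on this scale lay in part of the members.

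**Figure D1:**
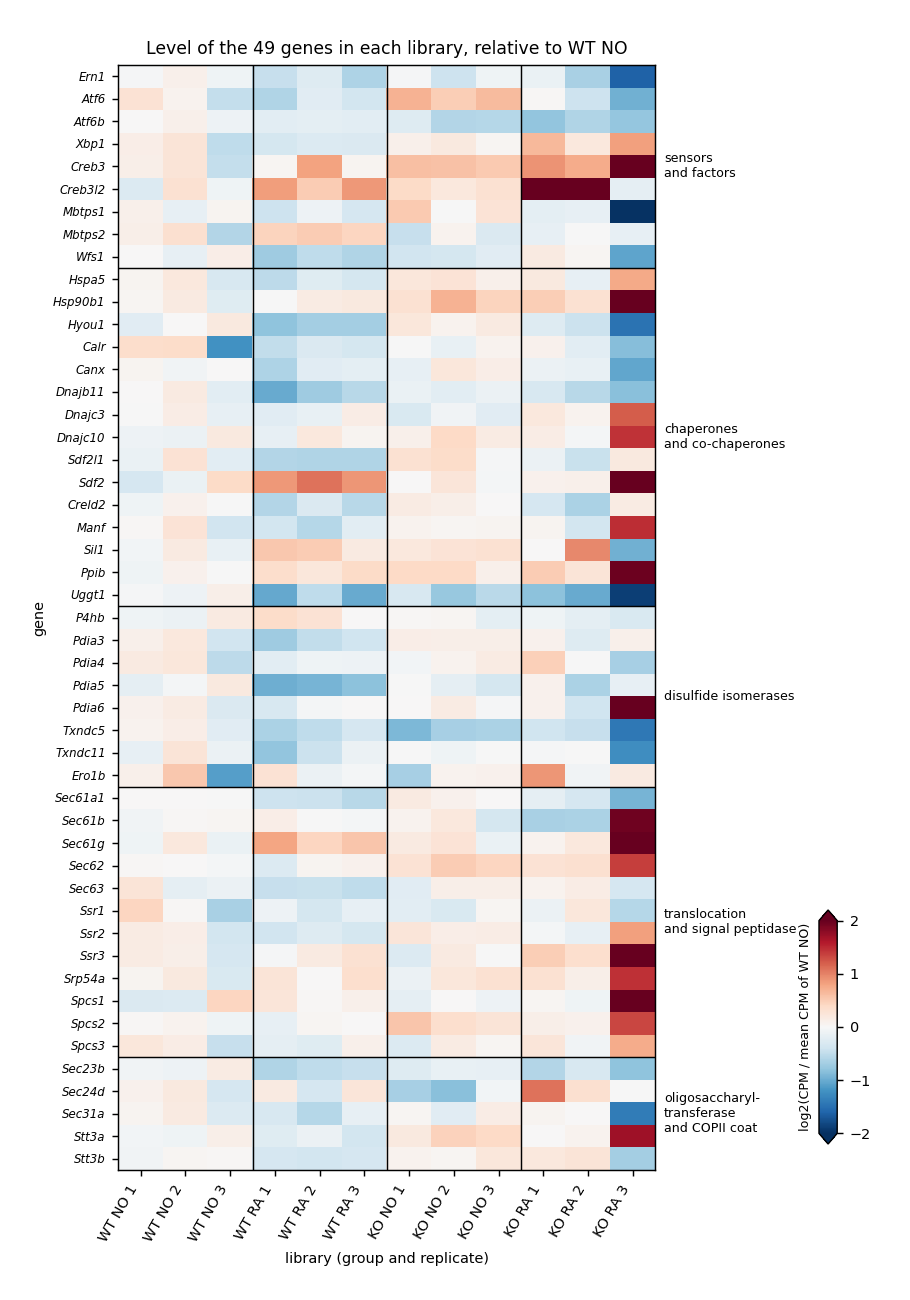
Level of the 49 genes (rows, grouped by role) in each of the 12 libraries (columns), as log2 of CPM over the mean CPM of the 3 WT NO libraries; colours are capped at −2 and 2. KO RA replicate 3 differs from the other 11 libraries in both directions, with Sec61g, Spcs1 and Creb3 at the top of the scale.

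The comparison of KO NO with WT NO cells asks whether loss of FAF2 alone changes this machinery. In the fit of all 12 libraries, edgeR called 0 of the 49 members at an adjusted p under 0.05, where 1.14% of all genes were called. At an unadjusted p under 0.05 it gave 2 members (4.08%), Txndc5 and Atf6b, against 12.2% of all genes. DESeq2 called these 2 members (background 6.15%), and limma-voom called 6 (background 21.7%). In each of these counts the share of members was below the share of all genes. The median log2 fold change of the members was 0.06, and that of all genes −0.02.

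Txndc5, which encodes a disulfide isomerase with 3 thioredoxin domains, had the largest difference between untreated KO and WT cells. Its level was 48.9, 57.6 and 58.7 CPM in KO NO and 95.6, 99.5 and 77.7 CPM in WT NO, and the groups did not overlap (log2 fold change −0.72 ± 0.27 (SE), edgeR adjusted p = 0.277). Without KO RA replicate 3, which changes the shared estimate of the spread but none of the libraries compared, it was called lower in KO NO cells (log2 fold change −0.71 ± 0.13 (SE), edgeR adjusted p = 0.00841), 1.64 times below WT NO. Atf6b, the paralogue of Atf6, was at 36.7, 29.2 and 29.5 CPM in KO NO and 43.99, 46.9 and 40.7 CPM in WT NO. The groups did not overlap, and edgeR called this gene too in the fit without that library and not in the fit with it (−0.46 ± 0.17 with edgeR adjusted p = 0.291 and −0.45 ± 0.12 with edgeR adjusted p = 0.0409, log2 fold changes with and without it). Spcs2, a subunit of the signal peptidase, was at 166, 143 and 136 CPM in KO NO and 115, 118 and 106 CPM in WT NO. It was named after its values were seen, as the 1 member called higher without KO RA replicate 3 (log2 fold change 0.40 ± 0.11 (SE), edgeR adjusted p = 0.0432, and 0.39 ± 0.31 with edgeR adjusted p = 0.744 in all libraries). In that fit, 1 member called higher compares with 4.43% of all genes and 2 called lower with 4.35%.

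The sensors and their main targets did not pass the edgeR test in untreated cells. Atf6 was at 12.4, 10.8 and 11.9 CPM in KO NO and 9.44, 8.10 and 5.52 CPM in WT NO, so that the groups did not overlap, with a log2 fold change 0.61 ± 0.28 (SE) and edgeR adjusted p = 0.419 (0.62 ± 0.21 and edgeR adjusted p = 0.0950 without KO RA replicate 3). Ern1 was at 3.31, 2.52 and 3.15 CPM in KO NO and 3.31, 3.59 and 3.17 CPM in WT NO, which overlapped (log2 fold change −0.16 ± 0.35 (SE), edgeR adjusted p = 0.949). Xbp1, at 31.4, 33.4 and 29.99 CPM in KO NO and 32.2, 34.8 and 20.7 CPM in WT NO, overlapped between the groups (log2 fold change 0.11 ± 0.23 (SE), edgeR adjusted p = 0.947). Its difference had the opposite sign without WT NO replicate 3 (−0.081) and with limma-voom (−0.042). edgeR called none of these 3 genes in either fit, and limma-voom called Atf6 (0.45, limma-voom adjusted p = 0.0498).

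BiP, the classical marker of ER stress, gave a similar picture at the RNA level. Hspa5 was at 489.9, 504 and 447 CPM in KO NO and at 432, 484 and 335 CPM in WT NO, which overlapped (log2 fold change 0.20 ± 0.27 (SE), edgeR adjusted p = 0.895). For Hsp90b1 the groups were apart, 490.4, 644 and 541 CPM in KO NO against 409, 449.8 and 336 CPM in WT NO. Its log2 fold change 0.49 ± 0.42 (SE) had an edgeR adjusted p = 0.770 in all libraries, and 0.50 ± 0.14 an edgeR adjusted p = 0.0520 without KO RA replicate 3, just short of the threshold. Sec62, a translocation partner of the SEC61 channel, was at 35.1, 41.1 and 38.9 CPM in KO NO and 29.3, 28.8 and 28.1 CPM in WT NO (log2 fold change 0.42 ± 0.28 (SE), edgeR adjusted p = 0.650, and edgeR adjusted p = 0.0505 without KO RA replicate 3). Uggt1, which reglucosylates misfolded glycoproteins for another round of calnexin binding, was lower in each KO NO library (42.4, 31.4 and 36.6 CPM) than in any WT NO library (52.5, 49.5 and 57.4 CPM), with a log2 fold change −0.53 ± 0.28 (SE) and edgeR adjusted p = 0.488 (edgeR adjusted p = 0.0759 without KO RA replicate 3). Sec24d, a cargo-binding subunit of the COPII coat, was at 9.32, 8.26 and 14.1 CPM in KO NO and 15.5, 16.9 and 11.6 CPM in WT NO, which overlapped (log2 fold change −0.48 ± 0.32 (SE), edgeR adjusted p = 0.651). Over all members, 10 were higher in every KO NO library than in any WT NO library (20.4%, against 15.5% of all genes) and 5 were lower (10.2%, against 15.2%).

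**Figure D2:**
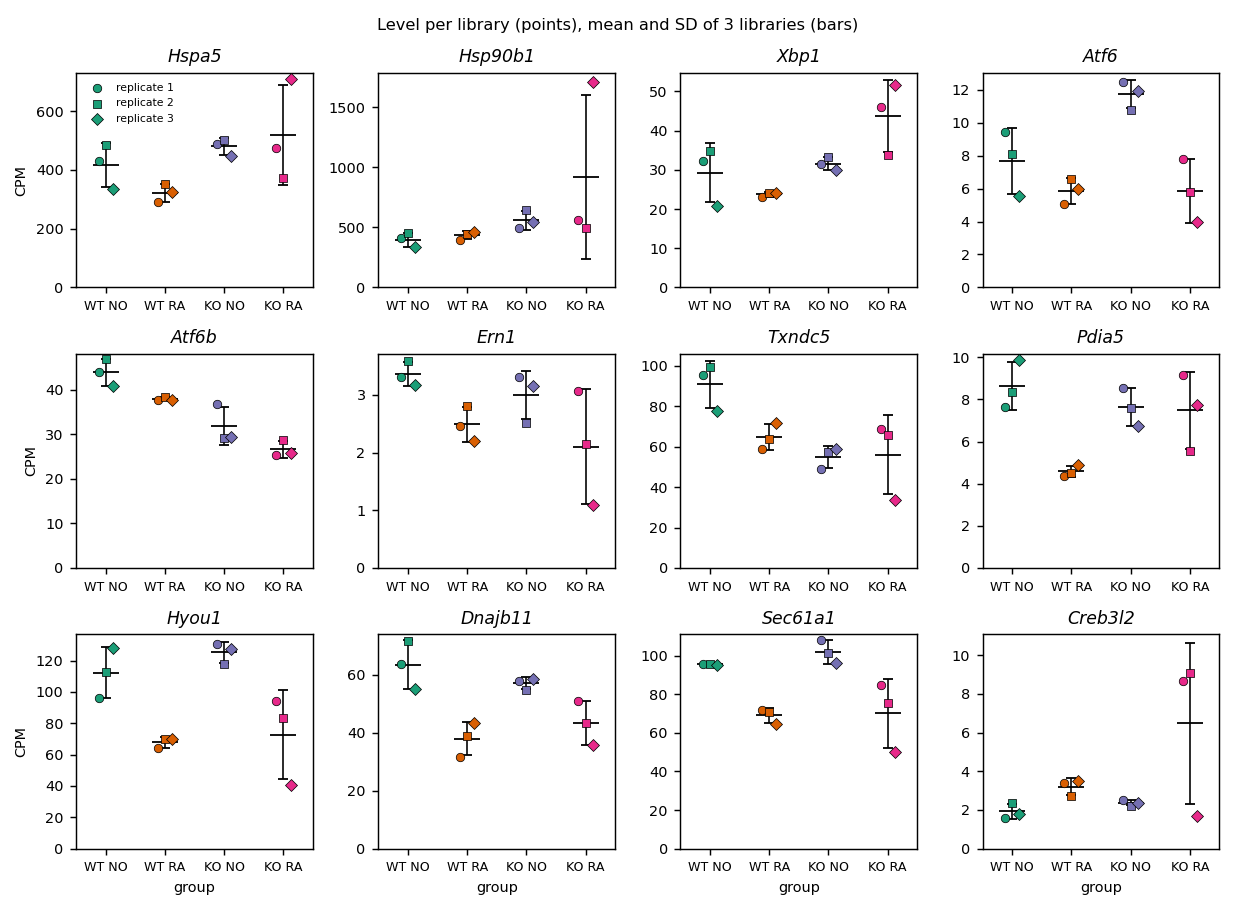
CPM per library of 12 of the genes in the 4 groups; points are libraries (circle, square and diamond for replicates 1, 2 and 3), the line is the mean and the bars are ± SD of 3 libraries, on axes from 0. Atf6, Hsp90b1, Txndc5 and Atf6b show no overlap between KO NO and WT NO, and KO RA replicate 3 sets the spread of KO RA for Hsp90b1, Hyou1 and Creb3l2.

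The comparison of WT RA with WT NO gives the response of unedited cells to RA. Of the 49 genes, 33 had a log2 fold change below 0 and 16 above, from −0.91 to 0.95. Of all 16502 genes, 8369 were below 0 and 8133 above. The median log2 fold change was −0.24 over the 49 genes and −0.01 over all genes. The median was −0.37 over the 15 chaperones and co-chaperones, −0.27 over the 8 disulfide isomerases and their oxidase, −0.28 over the 9 sensors and factors, −0.34 over the 5 genes of the oligosaccharyltransferase and COPII coat, and −0.04 over the 12 translocation and signal peptidase genes. In the fit of all libraries edgeR called 0 members (0.406% of all genes), and 9 members, all lower after RA, had an unadjusted p under 0.05 (18.4%, against 12.5% of all genes). DESeq2 called 6 members (12.2%, against 5.6% of all genes), and limma-voom called 20 (40.8%, against 21.7%). Without KO RA replicate 3, edgeR called 11 members lower after RA (22.4%, against 5.13% of all genes) and 2 higher (4.08%, against 5.65%). In WT cells 17 members were lower in every RA library than in any untreated library (34.7%, against 14% of all genes), and 6 were higher (12.2%, against 15.1%). Over the members the log2 fold change was lower for longer coding sequences (Spearman −0.357, and −0.0825 over 13361 genes), as a description over genes measured in the same libraries. In the next paragraphs on WT cells, rose and fell refer to the fit without KO RA replicate 3. In the edgeR fit of all libraries none of these members passed the test. Those with a p of that fit beside them were chosen by rule, and the others were named after their values were seen.

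Among the chaperones, Dnajb11, a co-chaperone of BiP whose start carries the ERSE-II shown above, fell from 63.8, 71.7 and 54.9 CPM in WT NO to 31.7, 38.8 and 43.2 CPM in WT RA (log2 fold change −0.74 ± 0.14 (SE), edgeR adjusted p = 0.0112, and −0.74 ± 0.21 with edgeR adjusted p = 0.161 in all libraries). Hyou1, a large HSP70-like protein that exchanges the nucleotide of BiP, fell from 96.00, 113 and 128 CPM to 63.9, 69.9 and 69.8 CPM (log2 fold change −0.72 ± 0.12 (SE), edgeR adjusted p = 0.00746, and edgeR adjusted p = 0.320 in all libraries). Uggt1 fell from 52.5, 49.5 and 57.4 CPM to 26.2, 37.6 and 26.5 CPM (log2 fold change −0.82 ± 0.17 (SE), edgeR adjusted p = 0.0148, and edgeR adjusted p = 0.245 in all libraries). In all of these the groups did not overlap. Sdf2l1, which works in a complex with DNAJB11, fell from 17.1, 22.9 and 16.1 CPM to 12.5, 12.4 and 12.3 CPM (log2 fold change −0.59 ± 0.17 (SE), edgeR adjusted p = 0.0487, and edgeR adjusted p = 0.307 in all libraries). Creld2, a secreted ER stress-inducible isomerase, fell from 58.6, 66.6 and 62.04 CPM to 41.4, 51.3 and 42.6 CPM (log2 fold change −0.46 ± 0.12 (SE), edgeR adjusted p = 0.0370). Sdf2, the paralogue of Sdf2l1, moved the other way, from 39.6, 45.7 and 65.3 CPM to 91.4, 106 and 92.9 CPM (log2 fold change 0.95 ± 0.17 (SE), edgeR adjusted p = 0.00990).

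edgeR called neither BiP nor GRP94 after RA in WT cells, and limma-voom called BiP lower (log2 fold change −0.50, limma-voom adjusted p = 0.0160). Hspa5 was at 289, 352 and 326 CPM in WT RA, which overlapped WT NO (log2 fold change −0.37 ± 0.15 (SE), edgeR adjusted p = 0.145). Hsp90b1 was at 394, 445 and 458 CPM in WT RA, with a log2 fold change 0.12 ± 0.14 (SE). Of the 8 genes with an ERSE in the promoter window, 6 had a fold change below 0 and 2 above, with a median of −0.22, and over the other 34 genes with a window the median was −0.20. Of those 8, edgeR called Creld2 in the fit without KO RA replicate 3, and limma-voom called Calr, Creld2 and Hspa5 in all libraries, in which it called 21.7% of all genes.

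In the other steps of the pathway, 6 further members were called lower and 1 higher. Pdia5, a disulfide isomerase, had the largest fold change among the members that were lower, from 7.64, 8.35 and 9.89 CPM in WT NO to 4.37, 4.51 and 4.87 CPM in WT RA, 1.88 times lower (log2 fold change −0.91 ± 0.21 (SE), edgeR adjusted p = 0.0232, and edgeR adjusted p = 0.140 in all libraries). Txndc5, whose window holds TGACGTGG, fell from 95.6, 99.5 and 77.7 CPM to 58.9, 63.9 and 71.9 CPM (log2 fold change −0.48 ± 0.12 (SE), edgeR adjusted p = 0.0357). Sec61a1, the pore-forming subunit of the SEC61 channel, fell from 96.04, 96.03 and 95.04 CPM to 71.7, 70.9 and 64.9 CPM (log2 fold change −0.46 ± 0.09 (SE), edgeR adjusted p = 0.0151). Sec61g, a small subunit of the same channel, rose from 239, 295 and 232 CPM to 444, 344 and 375 CPM (log2 fold change 0.61 ± 0.15 (SE), edgeR adjusted p = 0.0283), while Sec61b, the other small subunit, was at 248, 264 and 269 CPM and 284, 258 and 253 CPM (log2 fold change 0.03 ± 0.14 (SE), edgeR adjusted p = 0.921). The 3 subunits of the channel therefore did not move together. Sec23b, of the inner COPII coat, fell from 49.7, 48.4 and 58.4 CPM to 34.3, 36.8 and 37.8 CPM (log2 fold change −0.52 ± 0.12 (SE), edgeR adjusted p = 0.0204, and edgeR adjusted p = 0.266 in all libraries). Stt3b, a catalytic subunit of the oligosaccharyltransferase, and Wfs1, an ER membrane protein that restrains ATF6, were called lower with log2 fold changes of −0.34 ± 0.09 (edgeR adjusted p = 0.0406) and −0.60 ± 0.16 (edgeR adjusted p = 0.0401).

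The summed levels of neuron and of mesenchymal markers were higher after RA in both genotypes. Those of endothelial and of haematopoietic markers were higher in KO cells and overlapped in WT cells. Single markers did not all follow these sums. The summed level of 5 neuron markers (Tubb3, Map2, Rbfox3, Dcx, Stmn2) was 74.1 to 103 CPM in WT NO and 137 to 156 CPM in WT RA, and 68.6 to 86.2 CPM in KO NO and 140.03 to 203 CPM in KO RA. Of these, Rbfox3 went the other way, from 0.528 to 4.76 CPM in WT NO to 0.288 to 0.436 CPM in WT RA. In KO cells it was at 1.27 to 2.07 CPM in KO NO and 0.0991 to 0.784 CPM in KO RA. Tubb3 overlapped between WT NO and WT RA. In KO RA replicate 3 Stmn2 was at 165 CPM, and Dcx, at 1.49 CPM, was below KO NO (3.71 to 4.65 CPM). The sum of 5 mesenchymal markers (Col1a1, Col1a2, Col3a1, Pdgfra, Twist1) was 19.3 to 52.6 CPM in WT NO, 65.6 to 74.4 in WT RA, 32.3 to 40.2 in KO NO and 67.3 to 166 in KO RA. Twist1 overlapped between untreated and RA libraries in both genotypes, and Pdgfra did so in KO cells. The 4 endothelial markers (Pecam1, Kdr, Cdh5, Tek) summed to 0.563 to 2.81 CPM in WT NO and 1.29 to 2.23 CPM in WT RA. In KO cells they summed to 1.07 to 2.01 CPM in KO NO and 4.16 to 12.6 CPM in KO RA, with Cdh5 at 0 in all untreated libraries. In WT RA cells Cdh5 was at 0.0478 to 0.291 CPM. Tek was also higher after RA in WT cells, at 0.141 to 0.185 CPM in WT NO and 0.291 to 0.478 CPM in WT RA. The 3 haematopoietic markers summed to 0.0704 to 0.214 CPM in WT NO and 0.0481 to 0.239 CPM in WT RA. In KO cells they summed to 0.0838 to 0.557 CPM in KO NO and 2.73 to 3.57 CPM in KO RA, the latter nearly all from Cd34. Ptprc and Spi1 were at or below 0.322 CPM in every library, so the higher sum is that of Cd34 alone. The part of these cells in the changes of the ER genes was not tested. In bulk samples, fewer cells of a type and less RNA per cell cannot be told apart.

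**Figure D3:**
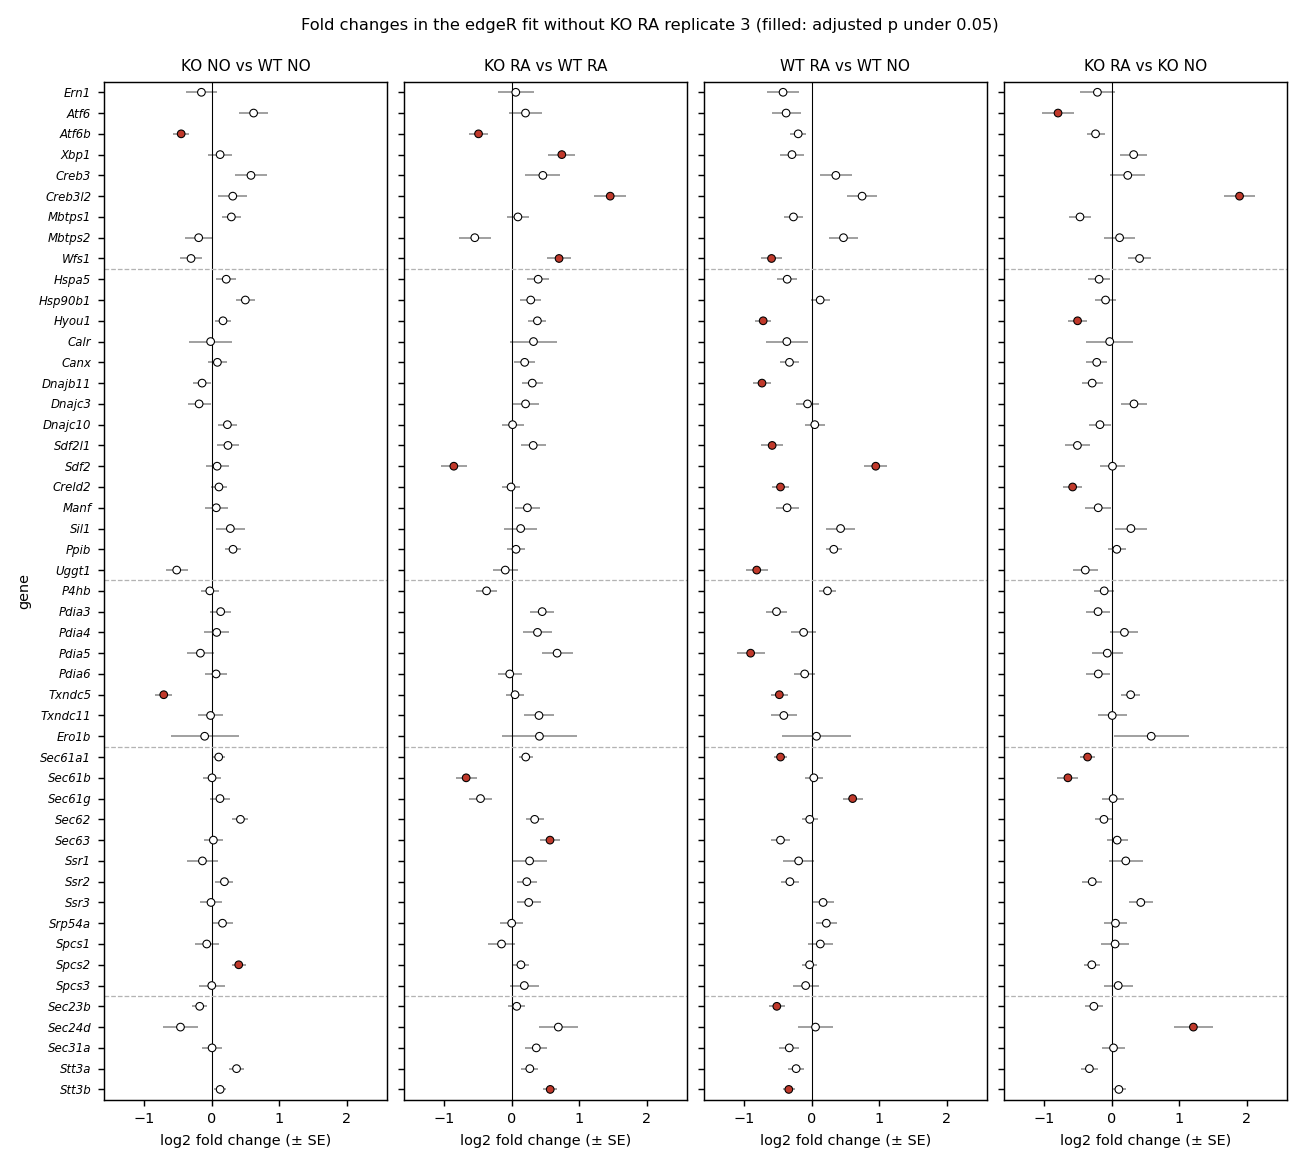
Log2 fold change (± SE) of each of the 49 genes in 4 comparisons, from the edgeR fit without KO RA replicate 3; filled points have an adjusted p under 0.05 over all genes tested, and dashed lines separate the role groups. WT RA against WT NO holds 13 filled points, 11 of them below 0.

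The comparison of KO RA with KO NO gives the same response in Faf2 KO cells, and its calls depended on replicate 3. In all libraries edgeR called 0 members (5.48% of all genes). At an unadjusted p under 0.05 there were 13 members (26.5%, against 25.2% of all genes), DESeq2 called 6 (12.2%, against 15.9%), and limma-voom called 6 (12.2%, against 27.5%). The median log2 fold change of the members was 0.10 in all libraries, against 0.11 over all genes, and −0.07 without replicate 3, against −0.02. Without it edgeR called 5 members lower (10.2%, against 7.54% of all genes) and 2 higher (4.08%, against 8.48%). Between the 2 remaining KO RA libraries and KO NO, 15 members were lower without overlap (30.6%, against 28.3%) and 8 higher (16.3%, against 27.4%).

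Creb3l2, an ER-anchored factor related to ATF6, had the highest fold change of the module in KO cells without replicate 3. It went from 2.49, 2.22 and 2.37 CPM in KO NO to 8.67 and 9.06 CPM in KO RA replicates 1 and 2, while replicate 3 was at 1.68 CPM, below KO NO. Without replicate 3 it was called higher, 3.72-fold (log2 fold change 1.90 ± 0.23 (SE), edgeR adjusted p = 0.000866), and with it the log2 fold change 1.47 ± 0.49 (SE) had an edgeR adjusted p = 0.106. Sec24d, whose window holds TGACGTGG, was at 31.01 and 18.3 CPM in KO RA replicates 1 and 2, 14.7 CPM in replicate 3 and 9.32, 8.26 and 14.1 CPM in KO NO. It was called higher without replicate 3 (log2 fold change 1.21 ± 0.29 (SE), edgeR adjusted p = 0.0185), with edgeR adjusted p = 0.0935 in all libraries.

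Atf6 was lower in all 3 KO RA libraries (7.81, 5.79 and 3.96 CPM) than in any KO NO library (12.4, 10.8 and 11.9 CPM), with a log2 fold change −0.99 ± 0.29 (SE) and edgeR adjusted p = 0.0690 in all libraries, and it was called without replicate 3 (−0.80 ± 0.24, edgeR adjusted p = 0.0470). Hyou1 was at 94.3, 83.2 and 40.4 CPM in KO RA and 131, 117 and 127 CPM in KO NO, and Sec61a1 at 84.9, 75.5 and 50.4 CPM in KO RA and 108, 102 and 96.3 CPM in KO NO. Both were lower in every KO RA library, and both were called without replicate 3 (Hyou1 −0.51 ± 0.14, edgeR adjusted p = 0.0305; Sec61a1 −0.36 ± 0.11, edgeR adjusted p = 0.0438). Creld2 was at 49.7 and 40.2 CPM in KO RA replicates 1 and 2, 69.97 CPM in replicate 3 and 69.8, 67.95 and 62.5 CPM in KO NO, and was called lower without replicate 3 (log2 fold change −0.58 ± 0.14 (SE), edgeR adjusted p = 0.0177). Creld2, Hyou1 and Sec61a1 were thus called lower after RA in both genotypes in the fit without that library. Sec61b was at 165 and 167 CPM in KO RA replicates 1 and 2, 998 CPM in replicate 3 and 273, 301 and 204 CPM in KO NO. It was called lower without replicate 3 (log2 fold change −0.65 ± 0.16 (SE), edgeR adjusted p = 0.0181), and its fold change turned to 0.77 ± 0.58 with replicate 3 (edgeR adjusted p = 0.418). These genes, other than Atf6, Creb3l2 and Sec24d, were named after their values were seen.

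For several members the highest KO RA values lay in replicate 3. The levels and ratios in this paragraph are on the TMM scale, on which the low factor of that library raises all its values. Sec61g was at 267 and 297 CPM in KO RA replicates 1 and 2, and at 3200.3 CPM in replicate 3. Spcs1, a signal peptidase subunit, was at 125 and 114 CPM and then 1342 CPM, and Ssr3, of the TRAP complex beside the channel, at 244 and 219 CPM and then 791 CPM. The log2 fold changes of Sec61g and Spcs1 against KO NO were 2.18 ± 0.78 (edgeR adjusted p = 0.126) and 2.20 ± 0.78 (edgeR adjusted p = 0.124) with this library and 0.02 ± 0.16 and 0.05 ± 0.20 without it. For Ssr3 they were 1.29 ± 0.44 (edgeR adjusted p = 0.111) and 0.43 ± 0.18. With 0.5 CPM added to each value, 16 members in replicate 3 were more than 2-fold above the mean of replicates 1 and 2 (32.7%, against 20.4% of 13361 genes with a coding length) and 7 were below 0.5 times that mean (14.3%, against 29.99%). The ratio was lower for longer coding sequences. It was above 1 in the median of the 24 members with the shortest coding sequences, 288 to 1428 bases (median log2 ratio 0.78), and below 1 in the 25 with longer ones (−0.71). The Spearman correlation of the ratio with coding length was −0.636 over the 49 members and −0.454 over the 13361 genes, as a description of that library, whose values share 1 library and its depth. The part of RNA quality or transcript length in these values was not tested.

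**Figure D4:**
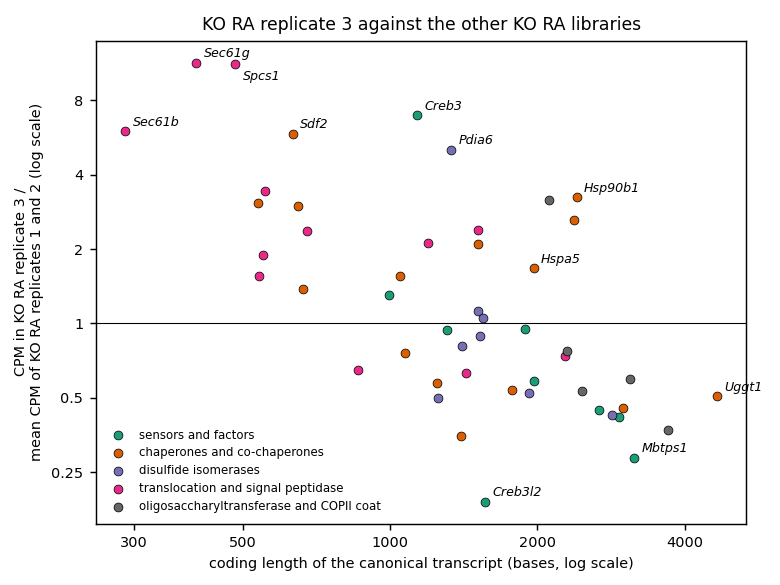
CPM of each member in KO RA replicate 3 over the mean CPM of KO RA replicates 1 and 2 (log scale), against the coding length of its canonical transcript in bases (log scale); colours are the role groups. Short genes such as Sec61b, Sec61g and Spcs1 lie above 5, and Mbtps1 and Creb3l2 lie lowest.

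The comparison of KO RA with WT RA asks whether the genotypes differ in this machinery after RA, and its calls also depended on replicate 3. Of the 49 members, 39 had a log2 fold change above 0 and 10 below, from −0.57 to 2.03. Of all 16502 genes, 9172 were above 0 and 7322 below. In all libraries edgeR called 0 members between KO RA and WT RA (1.24% of all genes), while 15 had an unadjusted p under 0.05 (30.6%, against 17.6% of all genes). DESeq2 called 4 (8.16%, against 7.97%) and limma-voom 10 (20.4%, against 18.1%). The median log2 fold change of the members was 0.44 in all libraries and 0.22 without replicate 3, against 0.09 and 0.01 over all genes. Without replicate 3, 5 members were called higher in KO RA (10.2%, against 4.42% of all genes) and 3 lower (6.12%, against 5.44%). In KO RA replicates 1 and 2, 24 members were above every WT RA library (49%, against 25.7% of all genes), and 6 were below (12.2%, against 22.2%). The 24 included Hspa5, at 475 and 374 CPM in those libraries and 289, 352 and 326 CPM in WT RA, and Hsp90b1, at 562 and 493 CPM and 394, 445 and 458 CPM. Neither was called (edgeR adjusted p = 0.164 and edgeR adjusted p = 0.280 without replicate 3). For this comparison both were named after their values were seen.

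Xbp1 had the smallest p of the members between KO RA and WT RA in the edgeR fit of all libraries, and Creb3l2 in the fit without replicate 3. It was at 46.00, 33.7 and 51.7 CPM in KO RA, above all WT RA libraries (23.03, 24.2 and 23.98 CPM), with a log2 fold change 0.88 ± 0.24 (SE) and edgeR adjusted p = 0.0969 in all libraries, and it was called higher without replicate 3 (0.74 ± 0.20, edgeR adjusted p = 0.0441). Atf6b was lower in KO RA, 25.4, 28.8 and 25.8 CPM against 37.8, 38.5 and 37.7 CPM in WT RA, again without overlap (log2 fold change −0.51 ± 0.17 (SE), edgeR adjusted p = 0.184, and −0.49 ± 0.14 with edgeR adjusted p = 0.0441 without replicate 3). Atf6b was therefore below WT in KO cells with and without RA. Pdia5 was at 9.16, 5.55 and 7.73 CPM in KO RA, above the 4.37, 4.51 and 4.87 CPM of WT RA in each library (log2 fold change 0.70 ± 0.24 (SE), edgeR adjusted p = 0.184, and edgeR adjusted p = 0.0926 without replicate 3). Creb3 (log2 fold change 2.03 ± 0.66, edgeR adjusted p = 0.162), Sec62 (0.80 ± 0.28, edgeR adjusted p = 0.196) and Stt3a, the other catalytic subunit of the oligosaccharyltransferase (1.05 ± 0.40, edgeR adjusted p = 0.220), were at 0.46 ± 0.26, 0.34 ± 0.13 and 0.27 ± 0.13 without replicate 3. edgeR called none of these 3 in either fit.

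The other members called without replicate 3 were named after their values were seen. Creb3l2 was at 8.67 and 9.06 CPM in KO RA replicates 1 and 2 (1.68 CPM in replicate 3) and 3.41, 2.72 and 3.49 CPM in WT RA, 2.75-fold higher (log2 fold change 1.46 ± 0.23 (SE), edgeR adjusted p = 0.00618). Stt3b was at 81.4 and 84.2 CPM and 55.9, 54.8 and 55.9 CPM (log2 fold change 0.57 ± 0.10 (SE), edgeR adjusted p = 0.00907), and Wfs1 at 7.67 and 6.95 CPM and 4.13, 4.80 and 4.49 CPM (log2 fold change 0.70 ± 0.18 (SE), edgeR adjusted p = 0.0332). Sec63, a J-domain partner of the SEC61 channel, was at 40.99 and 43.3 CPM and 28.7, 28.8 and 27.5 CPM (log2 fold change 0.57 ± 0.15 (SE), edgeR adjusted p = 0.0430). All 4 were higher in both KO RA libraries than in any WT RA library. Sdf2, at 53.1 and 53.9 CPM against 91.4, 106 and 92.9 CPM, and Sec61b, at 165 and 167 CPM against 284, 258 and 253 CPM, were lower (log2 fold change −0.86 ± 0.20 (SE), edgeR adjusted p = 0.0234, and log2 fold change −0.68 ± 0.16 (SE), edgeR adjusted p = 0.0237). In replicate 3 Sdf2 was at 314 CPM and Sec61b at 998 CPM, so that with it the log2 fold changes of Sdf2 and Sec61b were above 0, at 0.53 ± 0.57 and 0.74 ± 0.58. Without replicate 3, the log2 fold change between KO RA and WT RA was higher for longer coding sequences over the members (Spearman 0.305, and 0.193 over 13719 genes), and with it the relation was inverse (−0.448, and −0.179 over 13361 genes).

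Whether the RA response differed between the genotypes was tested by the interaction. EdgeR called 0 members, and 0% of all genes. At an unadjusted p under 0.05 there were 2 members, Pdia5 and Xbp1 (4.08%, against 8.62% of all genes). DESeq2 called 0 (background 1.87%) and limma-voom 4, Sdf2, Txndc5, Wfs1 and Xbp1 (8.16%, against 6.07%). Without replicate 3 edgeR called 0 members (1.34% of all genes), with 11 at an unadjusted p under 0.05 (22.4%, against 18.9%). The smallest p there were those of Wfs1 (1.01 ± 0.24, edgeR adjusted p = 0.0666), Txndc5 (0.76 ± 0.19, edgeR adjusted p = 0.0703), Sdf2 (−0.94 ± 0.26, edgeR adjusted p = 0.0958) and Creb3l2 (1.15 ± 0.32, edgeR adjusted p = 0.0978). These were named after their values were seen. In all libraries Sdf2 was at 0.46 ± 0.81, of the other sign, and the others kept their sign. Pdia5 was lower after RA in WT cells, and in KO cells it was at 8.55, 7.58 and 6.76 CPM without and 9.16, 5.55 and 7.73 CPM with RA, an interaction of 0.88 ± 0.34 on the log2 scale (edgeR adjusted p = 0.505). For Xbp1 the levels were 31.4, 33.4 and 29.99 CPM without and 46.00, 33.7 and 51.7 CPM with RA in KO cells, and 32.2, 34.8 and 20.7 CPM and 23.03, 24.2 and 23.98 CPM in WT cells. The interaction of Xbp1 was 0.77 ± 0.33 (edgeR adjusted p = 0.554). The next by p were Sec24d (0.97 ± 0.46, edgeR adjusted p = 0.593), Dnajc3, a co-chaperone (0.84 ± 0.43, edgeR adjusted p = 0.621), Spcs1 (2.08 ± 1.07, edgeR adjusted p = 0.627) and Ssr3 (1.13 ± 0.61, edgeR adjusted p = 0.638). Without replicate 3 the interaction of Dnajc3 was 0.39 ± 0.26, that of Ssr3 0.26 ± 0.24 and that of Spcs1 −0.077 ± 0.27, of the other sign. The interaction of no member passed the threshold in either edgeR fit. The comparisons set side by side here share libraries.

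Other genes of the same pathway, in 4 lists, were read from the same fits. Values in brackets are log2 fold changes with SE. Of 14 other sensors and factors, 12 were tested and 0 were called in all libraries in any comparison. Without KO RA replicate 3, Eif2ak3, the sensor PERK, was called higher in KO NO than in WT NO (0.90 ± 0.17, edgeR adjusted p = 0.0123). Over the 4 lists, that fit called 2 genes higher in this comparison (2.17% of 92 tested, against 4.43% of all genes). It called 3 lower (3.26%, against 4.35%). Tmx2 (0.74 ± 0.18) was the other gene called higher, and Tram2 (−1.54 ± 0.29), Mcfd2 (−0.76 ± 0.20) and Mogs (−0.45 ± 0.12) were called lower. Creb3l1, a relative of Creb3l2, was called lower after RA in WT cells (−1.77 ± 0.44, edgeR adjusted p = 0.0303) and higher in KO RA than in WT RA (1.85 ± 0.47, edgeR adjusted p = 0.0347). Between KO RA and WT RA that fit called 5 genes of the 4 lists higher (5.43%, against 4.42% of all genes) and 4 lower (4.35%, against 5.44%). Ppic (1.31 ± 0.32), Sec24c (0.58 ± 0.13), Kdelr2 (0.54 ± 0.12) and Mlec (0.43 ± 0.11) were the others called higher. Ssr4 (−1.20 ± 0.16), Ost4 (−0.78 ± 0.16), Sec13 (−0.65 ± 0.12) and Emc6 (−0.55 ± 0.12) were called lower. Of 30 other folding genes, 29 were tested and 3 were called in all libraries, all higher after RA in KO cells, a comparison in which 5.48% of all genes were called. These were the prolyl isomerases Fkbp7 (4.25 ± 0.79, edgeR adjusted p = 0.0124), Ppic (2.86 ± 0.45, edgeR adjusted p = 0.00666) and Fkbp14 (2.65 ± 0.55, edgeR adjusted p = 0.0213). Fkbp7 and Ppic were also called without replicate 3 (2.56 ± 0.36, edgeR adjusted p = 0.00169, and 2.20 ± 0.32, edgeR adjusted p = 0.00191). After RA in KO cells the fit without replicate 3 called 7 genes of the 4 lists higher (7.61%, against 8.48% of all genes) and 4 lower (4.35%, against 7.54%). In that fit Fkbp7 was called higher after RA in WT cells too (1.81 ± 0.33, edgeR adjusted p = 0.0103). The mesenchymal markers given above were, in sum, higher after RA in both genotypes, and their part in these values was not tested. Mlec, a lectin of the ER membrane, was called lower after RA in WT cells in that fit (−0.73 ± 0.10, edgeR adjusted p = 0.00307).

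Of 30 other translocation, signal peptidase and oligosaccharyltransferase genes, 29 were tested, and of 22 other ER exit and retrieval genes all were tested; 0 of either were called in all libraries. Without replicate 3, Ssr4, a subunit of the TRAP complex, was the 1 gene of the 4 lists called in the interaction (−1.25 ± 0.20, edgeR adjusted p = 0.0262). This is 1.09% of 92 tested, below the 1.34% of all genes called there. Ssr3, of the same complex, was not called (0.26 ± 0.24, edgeR adjusted p = 0.594). Sec13, of the outer COPII coat, was called lower after RA in KO cells (−0.76 ± 0.12, edgeR adjusted p = 0.00321) and in WT cells (−0.48 ± 0.11, edgeR adjusted p = 0.0206), and Preb, which loads the COPII GTPase, was called lower after RA in WT cells (−0.71 ± 0.14, edgeR adjusted p = 0.0126). Over these 4 lists in WT RA against WT NO, the fit without replicate 3 called 6 genes higher (6.52% of 92 tested, against 5.65% of all genes) and 7 lower (7.61%, against 5.13%). The 6 called higher were Fkbp7 (1.81 ± 0.33), Ero1a (1.38 ± 0.29), Tusc3 (0.76 ± 0.15), Ssr4 (0.63 ± 0.13), Sec23a (0.59 ± 0.16) and Kdelr1 (0.54 ± 0.13). Called lower were Creb3l1, Mlec, Sec13 and Preb, given above, and Tmbim6 (−0.43 ± 0.11), Mogs (−0.41 ± 0.12) and Rpn2 (−0.39 ± 0.10). The median log2 fold changes of that comparison in all libraries were −0.27 for the other sensors, 0.19 for the other folding genes, −0.12 for the other translocation genes and −0.22 for the other exit genes, beside −0.24 for the 49 members.

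Some members share sequence with other genes, and the strand setting of the counting is not given in the sources used here. In the GENCODE annotation, exons on the opposite strand overlap Creb3 (Gba2, and Tln1), Hspa5 (Rabepk), Ppib (Snx22), Txndc11 (Snn), Pdia3 (Ell3, and Catsper2), Pdia6 (Atp6v1c2), Srp54a (2700097O09Rik), Sdf2 (Supt6), Txndc5 (Bmp6) and Spcs1 (Glt8d1). Manf shares 14 bases with Rbm15b on its own strand. Reads from these stretches may be assigned to either gene. Srp54a, which encodes the signal-binding subunit of the signal recognition particle, has near-identical copies, and its level of 67.3, 73.9 and 52.5 CPM in WT NO is uncertain for that reason.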

How the data were processed

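Polyadenylated RNA of 12 NE-4C libraries was sequenced as paired reads. The authors aligned and quantified the reads against GRCm39 with the nf-core RNA-Seq pipeline. They deposited scaled estimated counts per gene, which were rounded to whole numbers here. Their values depend on transcript length as values scaled from TPM do (Spearman −0.749 over 3851 genes above 0 in 1 library). Groups came from the sample labels. Genes with low counts were removed, which left 16502 of 57010, and edgeR 4.0.16 (R 4.3.3) fitted all 12 libraries with TMM scaling, 1 coefficient per group and robust quasi-likelihood tests, adjusted by Benjamini-Hochberg over all genes tested at 0.05. SE is the absolute log2 fold change over the root of F. DESeq2 1.42.0, limma-voom (limma 3.58.1), other filters and scaling, a replicate block and leaving out each library were alternatives. The scripts were tested on simulated data. Library totals of 17370069 to 30738717 counts limit the precision of low members such as Ero1b. The members and lists were chosen with earlier results of these data known. Per comparison, values are given for members called, made up to 6 by the smallest p, and for Hspa5, Hsp90b1, Xbp1, Atf6 and Ern1 in untreated cells. Any other member is said to be named after its values were seen. Promoter windows are RefSeq's, of GRCm38.p6, and coordinates are of GRCm39 with GENCODE genes.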

Additional observations from a re-analysis of the deposited data

How the results depend on the processing

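edgeR called 0 members in each of the 5 comparisons in all libraries, and neither filter on low counts changed this. In the order genotype without RA, genotype with RA, RA in WT cells, RA in KO cells, DESeq2 called 2, 4, 6 and 6 (6.15%, 7.97%, 5.6% and 15.9% of all genes), and limma-voom 6, 10, 20 and 6 (21.7%, 18.1%, 21.7% and 27.5% of all genes), with 4 for the interaction (6.07%). Fitting only the libraries compared, edgeR called 1 member in KO NO against WT NO (2.04%, against 4.71% of all genes) and 3 in WT RA against WT NO (6.12%, against 3.71%). DESeq2 on the libraries compared, an alternative chosen after seeing the data, called 7 (KO NO against WT NO, 14.3%, against 13.2% of all genes), 13 (WT RA against WT NO, 26.5%, against 12.8%) and 1 (KO RA against KO NO, 2.04%, against 10.6%). Leaving out each library in turn gave 0 to 3, 0 to 8, 0 to 13 and 0 to 7 calls, and 0 to 0 for the interaction, the highest count of each pair coming without KO RA replicate 3, where 8.78%, 9.85%, 10.8% and 16% of all genes were called. In KO RA against KO NO, 3 members were called without KO RA replicate 2 (6.12%, against 6.33% of all genes), 1 without KO RA replicate 1 (2.04%, against 4.77%) and 1 without WT NO replicate 3 (2.04%, against 6.58%), and that last fit called 1 in KO RA against WT RA (2.04%, against 2.47%). The cause of these differences was not tested.

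The median log2 fold changes of the members over these fits ran from 0.023 to 0.14, 0.22 to 0.61, −0.33 to −0.16 and −0.067 to 0.11, and from 0.17 to 0.55 for the interaction. With DESeq2 size factors, and with DESeq2, the medians were 0.54 (KO RA against WT RA), 0.18 (KO RA against KO NO) and 0.51 (interaction). With limma-voom they were 0.21, −0.059 and 0.21, and −0.31 for WT RA against WT NO. limma-voom also moved the median of all genes by −0.13 (KO RA against KO NO) and −0.14 (interaction). DESeq2 on the libraries compared gave 0.52 (KO RA against WT RA) and 0.17 (KO RA against KO NO).

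Over all 49 members, the sign of the log2 fold change differed without KO RA replicate 3 in 2, 13, 0 and 16 members in the same order, and in 18 for the interaction. With limma-voom it differed in 7, 11, 1 and 16, and in 17. Among the log2 fold changes of members named by rule or called without KO RA replicate 3, those of 4 members changed sign. For Xbp1 in KO NO against WT NO it was −0.042 with limma-voom and ran from −0.081 (without WT NO replicate 3) to 0.26 over the left-out libraries. The other sign changes came without KO RA replicate 3. Sdf2 in KO RA against WT RA was at −0.78 with limma-voom and ran from −0.86 to 1.01. Sec61b in KO RA against WT RA was at −0.63 and ran from −0.68 to 1.22, and in KO RA against KO NO at −0.54 and from −0.65 to 1.25. Spcs1 in the interaction was at −0.27 and ran from −0.077 to 2.65. Of 1016 values of members so chosen, 902 kept their direction and their side of the threshold, 104 became called and these 10 changed sign. Without TMM factors, 73 of 196 group levels moved by more than 1 SD. The replicate numbers did not pair the libraries (correlations of deviations −0.167 to 0.0677), and with a replicate block edgeR still called 0 members in each comparison, with medians of 0.08, 0.43, −0.21 and 0.08, and 0.35 for the interaction.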
